A study of Homo sapiens with 24 samples.

Results

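The 36 genes described here encode cytosolic and mitochondrial chaperones and their direct partners. They are members of a list of gene symbols whose rule sets no threshold on measured values, although earlier results of these data were known when it was drawn up. They make up 36 of the 60230 genes in the deposited tables. They fall into a heat shock protein group of 25 genes (the HSP70, HSP90, small heat shock protein, J protein and mitochondrial chaperone genes with cochaperones and the factor HSF1), the 8 genes of the CCT chaperonin and 3 genes of prefoldin. All 36 passed the low-count filter. RNA came from xenografts grown in mice from the AsPC-1 line, an established line of human pancreatic ductal adenocarcinoma. Mice were given 3 doses by mouth, every other day, of either vehicle (5% DMSO and 95% PEG400) or 6 mg/kg of IK-595, a compound the labels call a MEK-RAF molecular glue. Vehicle tumors were taken at 2 h after the last dose and IK-595 tumors at 2, 4, 8, 24 or 48 h, with 4 animals in each of the 6 groups. One label field of the IK-595 tumors counts the hours from the last vehicle dose, while the study's protocol counts them from the last dose. A single vehicle group, at 2 h, is analysed here, so the effect of IK-595 and that of the hour of collection cannot be told apart at 4 h and later. All tumors come from 1 cell line, and the strain, age and sex of the mice were not given in the sources used here.

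Chaperones bind polypeptides that are not yet folded, or have lost their fold, and keep them from aggregating. HSP70 proteins take up short hydrophobic stretches in cycles of ATP hydrolysis that J proteins start and that HSP110 proteins reset by exchanging the nucleotide. HSP90 then completes the folding of kinases, RAF kinases among them, and of steroid receptors, with cochaperones that load, pace and release the client. Prefoldin captures new actin and tubulin chains and passes them to CCT, a double ring of paralogous subunits that folds them inside a closed chamber. HSPD1 and HSPE1 form the corresponding chamber of the mitochondrial matrix. HSF1 is the factor that raises heat shock genes when unfolded protein accumulates, through heat shock elements built of GAA units in alternating orientation.

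Heat shock elements are shown first because they are what several of these genes share in sequence. Promoter windows of 250 bases before to 50 after a gene start (RefSeq, GRCh38.p14) were matched for 31 of the 36 genes in 43 windows. The genes without a window were CRYAB, CCT6A, PFDN2, FKBP4 and HSF1. A run of 3 alternating units, searched as GAANNTTCNNGAA or TTCNNGAANNTTC on both strands, was present in 6 of the 31 genes and in 14.0% of their windows, against 0.49% of all 35116 windows of this length. A run of 2 units (GAANNTTC or TTCNNGAA, contained in every longer run) was present in 18 of the 31 genes and in 46.5% of their windows, against 13.5% of all windows. A match describes the letters only. The 6 genes with 3 or more units are given as 30 bases around the match, 5′ to 3′ along the gene, with the GAA and TTC units in capitals.
HSPA8 (chr11:123062345-123062374, minus strand): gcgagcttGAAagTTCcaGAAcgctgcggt
HSP90AA1 (chr14:102087111-102087140, minus strand): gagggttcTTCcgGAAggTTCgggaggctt
HSP90AB1 (chr6:44247770-44247799, plus strand): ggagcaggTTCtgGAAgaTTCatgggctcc
HSPD1 (chr2:197500061-197500090, minus strand): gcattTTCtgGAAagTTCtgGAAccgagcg
DNAJA1 (chr9:33025268-33025297, plus strand): gccgggcgGAActTTCcaGAAcgctcggtg
CHORDC1 (chr11:90223083-90223112, minus strand): ccgGAAaaTTCgcGAAggTTCctGAAacgc
At 8 h these 6 genes were called lower, as were 20 of the other 30 members and 23.7% of all genes tested. Those 30 include the genes without a window. No other time had all 6 called. At 2 h DNAJA1 and CHORDC1 were not called, and at 24 h HSPA8 and DNAJA1 were not. Only CHORDC1 was called at 4 h and only HSPD1 at 48 h. CHORDC1 had 3 matches in its window, the most of the 6.

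The upstream stretches of HSPA1A, HSPA1B and HSPB1 are given as far as they are free of annotated exons, because HSPA1A and HSPA1B are the classic stress-inducible pair and HSPB1 moved against most of the list. Capitals mark the 2-unit match that each contains. The HSPA1A and HSPA1B windows were 92.6% identical over 299 bases, and the transcripts are near copies of each other too, so the split of reads between these genes is uncertain and their sum is given as well.
HSPA1A (chr6:31815293-31815463, plus strand): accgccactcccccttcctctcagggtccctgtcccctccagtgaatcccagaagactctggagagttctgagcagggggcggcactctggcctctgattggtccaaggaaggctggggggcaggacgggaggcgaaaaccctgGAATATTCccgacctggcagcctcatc
HSPA1B (chr6:31827488-31827734, plus strand): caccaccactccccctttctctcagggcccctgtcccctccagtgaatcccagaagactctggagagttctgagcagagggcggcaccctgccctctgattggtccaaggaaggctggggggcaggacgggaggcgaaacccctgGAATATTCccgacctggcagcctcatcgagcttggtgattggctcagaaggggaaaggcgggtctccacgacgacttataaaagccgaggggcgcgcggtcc
HSPB1 (chr7:76302423-76302543, plus strand): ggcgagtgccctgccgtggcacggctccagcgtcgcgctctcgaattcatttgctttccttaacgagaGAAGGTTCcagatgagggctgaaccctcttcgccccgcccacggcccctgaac
The 2-unit match of HSPA1A and HSPA1B has the same letters, and that of HSPB1 differs from it in the spacer bases.

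Depth, in units of 1e6 counts, ranged from 10.52 to 20.64 per tumor and was lowest in 4 h tumor 2 and 8 h tumor 4. The 10 epithelial markers summed to 6692 to 17680 CPM (counts per 1e6 counts, after TMM scaling) and were present in all 24 tumors. The 14 skeletal muscle markers summed to 14.7 to 7777 CPM and exceeded 1000 CPM in 2 h tumor 1, 4 h tumor 4, 8 h tumors 2 and 4 and 24 h tumor 4. The 10 fibroblast and pericyte markers summed to 852 to 30140 CPM, with the highest sum in 4 h tumor 2 and 5142 CPM as the next. The 8 endothelial markers summed to 5.65 to 112 CPM, the 8 myeloid markers to 241 to 725 CPM with ADGRE1 at 0 in every tumor, and the 8 adipocyte and red cell markers to 1.16 to 10.3 CPM with ADIPOQ at 0 in every tumor. Mitochondrially encoded mRNA took 6.13 to 8.78% of counts in vehicle tumors, 9.93 to 15.8% at 2 h, 6.22 to 13.2% at 4 h, 15.3 to 20.5% at 8 h, 10.3 to 26.99% at 24 h (highest in tumor 1) and 9.87 to 11.1% at 48 h. Its part in the results was not tested. Chaperone genes are alike in sequence between mouse and human and are active in most cell types, and a lower level from fewer cells of a type cannot be told apart from less RNA per cell. Counts are therefore also given without the 6 tumors richest in muscle or fibroblast markers (2 h tumor 1, 4 h tumors 2 and 4, 8 h tumors 2 and 4, 24 h tumor 4), a choice made after seeing the data.

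Between 18 and 26 of the 36 chaperone genes were lower than vehicle in IK-595 tumors at 2, 8 and 24 h, and 5 or fewer at 4 and 48 h. The small heat shock protein gene HSPB1 was higher at all 5 times. A gene is called changed at an adjusted p under 0.05 in edgeR. At 2 h 18 of the 36 were lower (13.6% of all 18242 genes tested were called lower) and 1 was higher (13.4% of all genes). At 4 h 5 were lower (8.39% of all genes) and 2 were higher (6.74%). At 8 h 26 were lower (23.7% of all genes) and 1 was higher (20.6%). At 24 h 21 were lower (13.8% of all genes) and 1 was higher (13.7%). At 48 h 4 were lower (4.46% of all genes) and 1 was higher (5.52%). In order of time, the median log2 fold change of the 36 was -0.49, -0.18, -0.79, -0.59 and -0.30. The corresponding medians were 0.05, 0.03, 0.07, 0.06 and -0.01 over all genes tested. Of the 36, 17 genes were lower at 2, 8 and 24 h, and 15 of these were not called at 4 h. The 5 comparisons share the same vehicle tumors, so their counts are not independent.

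Single tumors carried part of these counts. Of the 80 calls against vehicle, 53 remained on leaving out each of the 24 tumors in turn. The 4 genes lower at 48 h fell to 0 without vehicle tumor 1, vehicle tumor 2, 48 h tumor 2 or 48 h tumor 4, and the 1 gene higher at 48 h fell to 0 without vehicle tumor 1, vehicle tumor 4, 48 h tumor 2 or 48 h tumor 4. Over all genes tested, those lower at 48 h numbered 814 with all tumors and 397, 472, 382 and 462 in these fits. Those higher at 48 h numbered 1007 with all tumors and 645, 908, 581 and 637 in these fits. The 2 genes higher at 4 h fell to 0 without vehicle tumor 4 or 4 h tumor 2, and to 1 without vehicle tumor 1 or 4 h tumor 1. Over all genes tested, those higher at 4 h numbered 1230 with all tumors and 1036, 1259, 979 and 1098 in these fits. The genes called higher numbered 2 at 2 h without 2 h tumor 1 and 2 at 8 h without 24 h tumor 4. Without the 6 tumors richest in muscle or fibroblast markers, the genes called lower numbered 19, 3, 24, 19 and 2 in order of time. Of all 18896 genes tested in that fit, 2625, 865, 3416, 1842 and 812 were called lower.

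Other settings ended some of the calls against vehicle. With RLE scaling, the calls lost were TCP1 at 2 h and AHSA1 and BAG3 at 8 h. With DESeq2, the call lost was AHSA1 at 8 h. With no low-count filter, the call lost was CCT6A at 48 h. With a filter of 1 CPM in 4 tumors, the calls lost were CCT3 and TCP1 at 2 h and AHSA1 and BAG3 at 8 h. On log2(TPM + 1), the calls lost were CHORDC1 and DNAJB4 at 4 h, AHSA1 and HSPA4 at 8 h, BAG3 at 24 h and CCT6A, CCT8 and HSPD1 at 48 h. On log2(TPM + 0.1), the calls lost were CHORDC1 and DNAJB4 at 4 h, AHSA1 and HSPA4 at 8 h, BAG3 at 24 h and CCT6A, CCT8, HSPD1 and PFDN4 at 48 h. With only the compared groups in the fit, the calls lost were CHORDC1 at 4 h, AHSA1 and BAG3 at 8 h and BAG3, DNAJB1, HSP90AA1, HSP90AB1 and HSPA9 at 24 h. With the muscle marker covariate, the calls lost were CCT6A, CCT8 and PFDN4 at 48 h. With the replicate block, the calls lost were CCT3, HSP90AA1 and TCP1 at 2 h, AHSA1 at 8 h and CCT6A at 48 h. Without the 6 tumors richest in muscle or fibroblast markers, the calls lost were CCT3 and HSP90AA1 at 2 h, CHORDC1, DNAJB4, HSPB1 and PFDN4 at 4 h, BAG3, CHORDC1 and DNAJB1 at 8 h, CCT3, DNAJB1, HSP90AA1 and HSPA9 at 24 h and CCT6A and PFDN4 at 48 h.

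**Figure D1:**
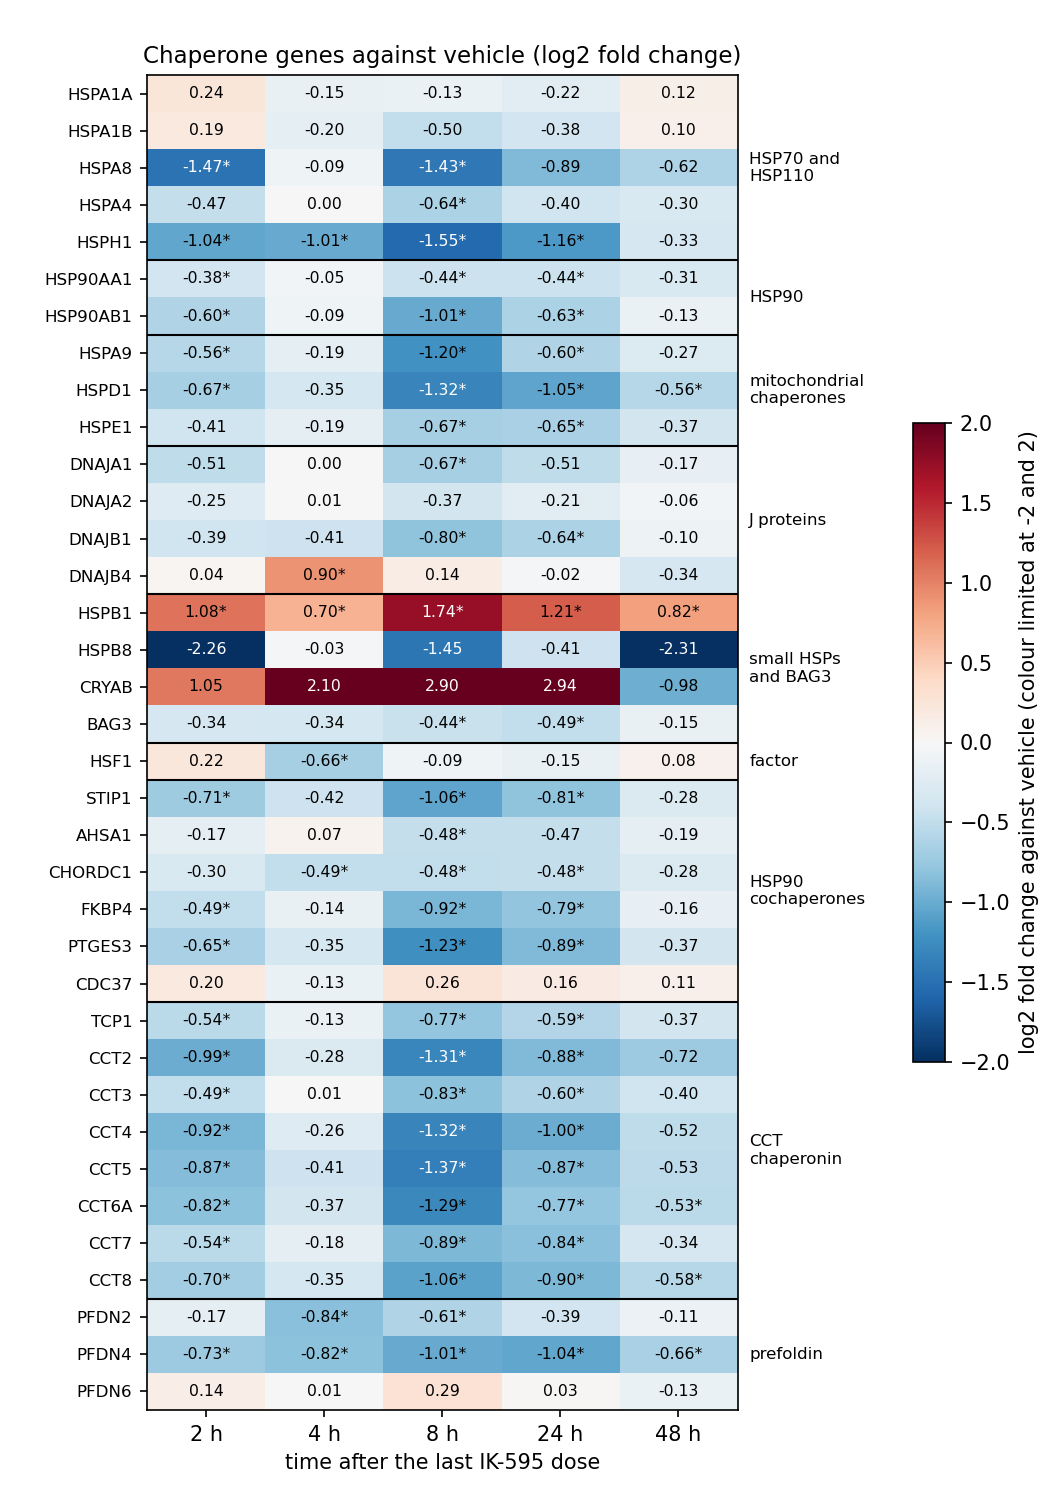
Log2 fold change of each of the 36 chaperone genes (rows, grouped by role) against vehicle at 5 times after the last IK-595 dose (columns), 4 tumors per group. Red is higher and blue is lower than vehicle, and an asterisk marks an edgeR adjusted p under 0.05. The CCT rows are blue with an asterisk at 2, 8 and 24 h and have no asterisk at 4 h, when CCT3 is at 0.006. At 48 h CCT6A and CCT8 have an asterisk. The HSPB1 row is red with an asterisk at all 5 times.

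Levels per unit length, in TPM, spanned a wide range among the genes. Over the 24 tumors HSPB1 had the highest mean, 1393 TPM, followed by HSPA8 at 529 TPM, HSPE1 at 388 TPM, HSP90AB1 at 359.6 TPM, HSP90AA1 at 310.5 TPM and HSPD1 at 241 TPM. The lowest were DNAJB4 at 9.93 TPM and HSPB8 at 0.394 TPM. The 36 genes together summed to 7252, 7661, 6580 and 6376 TPM in the vehicle tumors, 5166, 5135, 5097 and 5497 TPM at 2 h and 5941, 7708, 6156 and 7325 TPM at 4 h. They summed to 5395, 5742, 4701 and 5236 TPM at 8 h, 4032, 4927, 6909 and 6359 TPM at 24 h and 6102, 5846, 6116 and 5821 TPM at 48 h. All 2 h, 8 h and 48 h sums lay below all vehicle sums, and the 4 h and 24 h sums overlapped them. Unlike the CPM given here, TPM had no TMM scaling between tumors. On log2(TPM + 1) the median change against vehicle over all genes tested was -0.10, 0.04, -0.13, -0.04 and -0.06 in order of time. HSPB1 made up 10.6 ± 1.45% of the sum (SD, n = 4) in vehicle tumors, 40.6 ± 7.09% at 8 h and 20.8 ± 5.72% at 48 h.

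In the HSP70 and HSP110 family, the constitutive gene HSPA8 and the HSP110 gene HSPH1 were lower after IK-595, whereas the inducible HSPA1A and HSPA1B were not called at any time. HSPA8 encodes HSC70, the main housekeeping HSP70 of the cytosol, and lies on chromosome 11, 123057489 to 123063230, minus strand (GENCODE 29, GRCh38). HSPA8 stood at 1353, 1445, 1136 and 1170 CPM in vehicle tumors 1 to 4 and at 778, 362, 344 and 354 CPM at 2 h. HSPA8 was at 760.3, 1986, 911 and 1145 CPM at 4 h and 467, 628, 230.1 and 575 CPM at 8 h. Levels of HSPA8 were 366, 520.4, 1130 and 745 CPM at 24 h and 1000, 699.5, 925 and 688 CPM at 48 h. The 2 h tumors fell into 3 low values and 1 higher value, tumor 1, and the 4 h tumors spread more widely than any other group. Every 2 h, 8 h, 24 h and 48 h tumor was below every vehicle tumor. Values after a gene are log2 fold changes ± standard error with 4 tumors per group. HSPA8 changed by -1.47 ± 0.359, adjusted p = 0.00509, at 2 h and by -1.43 ± 0.359, adjusted p = 0.00293, at 8 h, while its values at 4 h (-0.09 ± 0.352, adjusted p = 0.9), 24 h (-0.89 ± 0.355, adjusted p = 0.0671) and 48 h (-0.62 ± 0.353, adjusted p = 0.312) did not pass. Between IK-595 times it was higher at 4 h than at 2 h (1.39 ± 0.359, adjusted p = 0.015) and lower at 8 h than at 4 h (-1.34 ± 0.358, adjusted p = 0.0101). The rise from 2 h was lost without 2 h tumors 2, 3 or 4 or 4 h tumor 2 (1.05 to 1.29) and the fall from 4 h was lost without 4 h tumor 2 (-0.98).

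HSPH1, whose product exchanges the nucleotide of HSP70, lies on chromosome 13, 31134974 to 31162388, minus strand. HSPH1 stood at 153, 200, 188 and 144 CPM in vehicle tumors 1 to 4 and at 83.7, 73.3, 82.3 and 93.3 CPM at 2 h. HSPH1 was at 89.2, 82.8, 83.9 and 84.7 CPM at 4 h and 73.8, 62.5, 52.6 and 44.6 CPM at 8 h. Levels of HSPH1 were 57.5, 66.2, 94.5 and 88.99 CPM at 24 h and 140.3, 132, 142 and 129 CPM at 48 h. Unlike HSPA8, HSPH1 was low in all 4 tumors at 4 h, and no IK-595 tumor at any time reached the lowest vehicle value. It changed by -1.04 ± 0.155, adjusted p = 8.5e-05, at 2 h, -1.01 ± 0.155, adjusted p = 7.4e-05, at 4 h, -1.55 ± 0.158, adjusted p = 1.5e-07, at 8 h and -1.16 ± 0.156, adjusted p = 2.1e-05, at 24 h, and stood at -0.33 ± 0.154, adjusted p = 0.19, at 48 h. HSPH1 was lower at 8 h than at 4 h (-0.54 ± 0.155, adjusted p = 0.0136) and higher at 48 h than at 24 h (0.82 ± 0.155, adjusted p = 0.00441). The 8 h difference from 4 h was lost without 8 h tumor 4 (-0.44), and the 48 h difference was lost on log2(TPM + 0.1) and in a fit of the compared groups alone. Over the 5 IK-595 times HSPH1 had the smallest p of this family (F test, adjusted p = 6.4e-05).

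HSPA1A and HSPA1B (chromosome 6, 31815464 to 31817946, plus strand, and chromosome 6, 31827735 to 31830255, plus strand) encode HSP72, the form of HSP70 made under proteotoxic stress. HSPA1A stood at 238, 362, 407 and 276 CPM in vehicle tumors 1 to 4 and at 229, 364, 376 and 550.2 CPM at 2 h. HSPA1A was at 289, 308, 302 and 255 CPM at 4 h and 351, 309, 250 and 264 CPM at 8 h. Levels of HSPA1A were 169, 282, 289.6 and 361 CPM at 24 h and 293, 395, 299 and 406 CPM at 48 h. The groups overlapped at every time, and 2 h tumor 4 was the highest and 24 h tumor 1 the lowest of all. The 95% interval of the HSPA1A log2 fold change ran from -0.23 to 0.72 at 2 h and from -0.60 to 0.34 at 8 h. HSPA1B ranged from 79.2 to 437 CPM, with log2 fold changes of 0.19, -0.20, -0.50, -0.38 and 0.10 from 2 to 48 h. The pair together had a mean of 559 ± 134 CPM (SD, n = 4) in vehicle tumors. After IK-595 this sum had means of 652 ± 247, 496 ± 58.6, 462 ± 71.5, 458 ± 148 and 603 ± 119 CPM in order of time. HSPA1A made up 55.2% to 68.1% of that sum over the 24 tumors. HSPA4, a further HSP110-type exchange factor, ranged from 78.2 to 219 CPM and was lower at 8 h (-0.64 ± 0.195, adjusted p = 0.0109), a call lost without vehicle tumor 2 (-0.55) and on either log2 TPM scale.

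**Figure D2:**
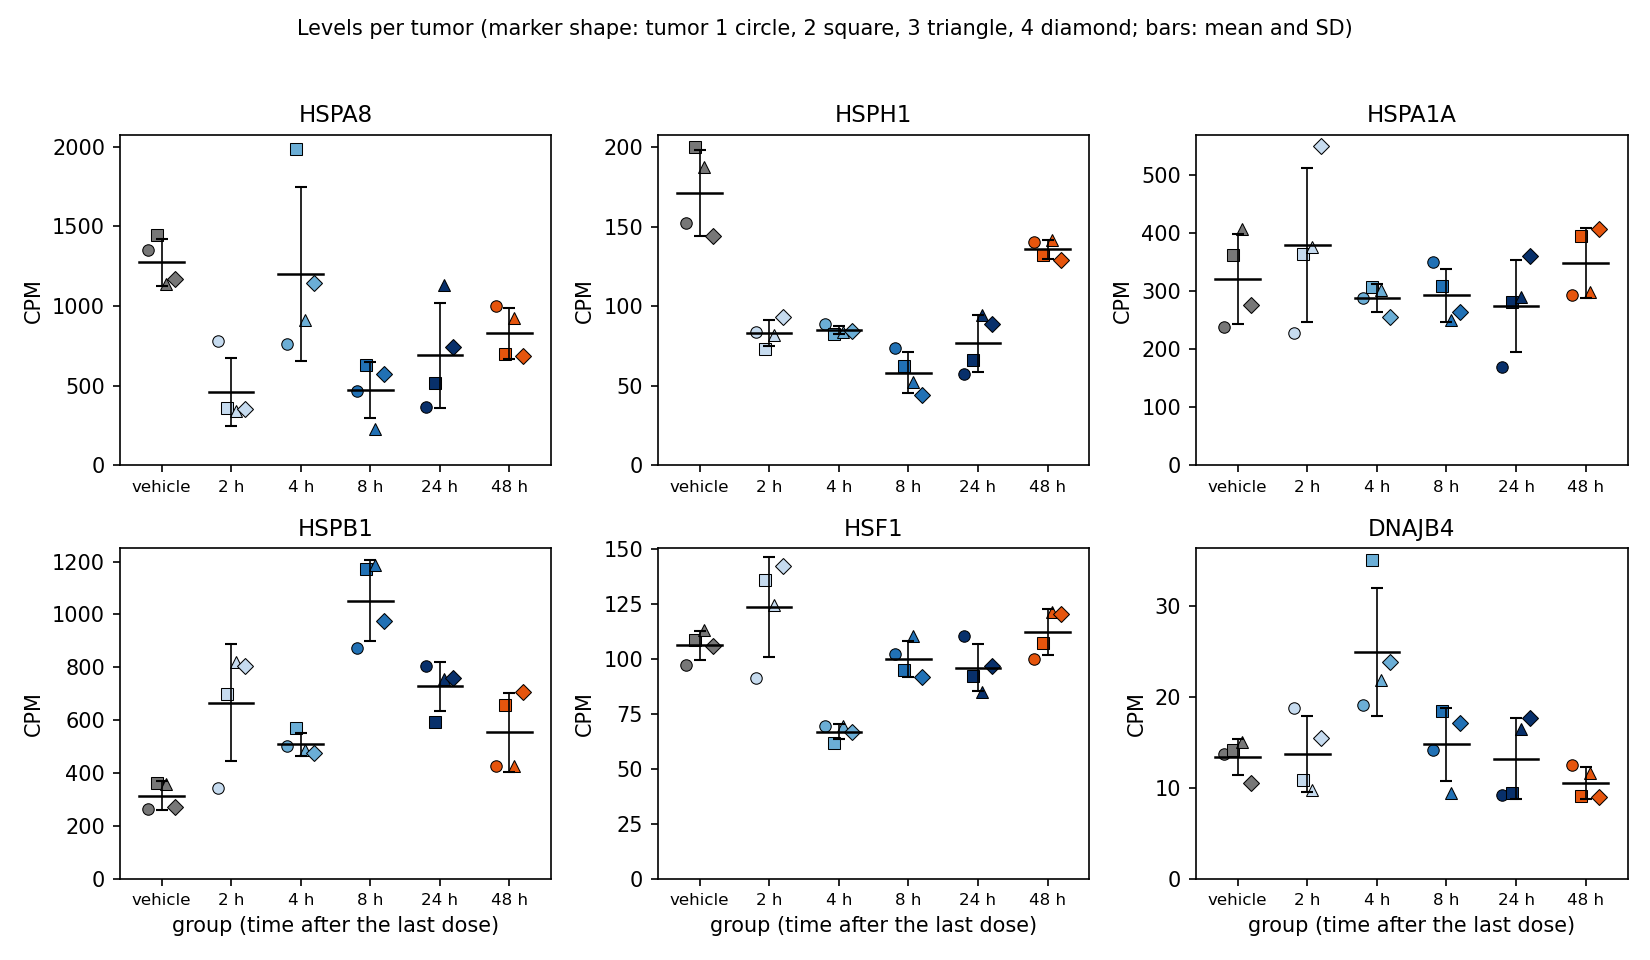
Level of 6 chaperone genes in each of the 24 tumors, in CPM (vertical axis, from 0), by group (horizontal axis); marker shapes give tumors 1 to 4, horizontal bars the mean and vertical bars the SD of 4 tumors. HSPA8 and HSPH1 are low at 2 and 8 h, and at 4 h HSPA8 overlaps vehicle whereas HSPH1 does not, HSPA1A overlaps vehicle at all times, HSPB1 lies above vehicle from 4 h on, HSF1 is lowest at 4 h and DNAJB4 highest at 4 h.

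Both cytosolic HSP90 genes were lower at 2, 8 and 24 h, with larger fitted changes in the constitutive HSP90AB1 (HSP90 beta) than in HSP90AA1 (HSP90 alpha), a difference that was not tested. HSP90AB1 lies on chromosome 6, 44246166 to 44253888, plus strand. HSP90AB1 stood at 1086, 1067, 929.6 and 922 CPM in vehicle tumors 1 to 4 and at 659, 637, 669 and 672 CPM at 2 h. HSP90AB1 was at 871, 959, 836 and 1092 CPM at 4 h and 569, 576, 359 and 479 CPM at 8 h. Levels of HSP90AB1 were 419.6, 639, 864 and 659.5 CPM at 24 h and 950.3, 904, 968 and 841 CPM at 48 h. All tumors at 2, 8 and 24 h were below the lowest vehicle tumor, and those at 4 and 48 h overlapped vehicle. HSP90AB1 changed by -0.60 ± 0.167, adjusted p = 0.0106, at 2 h, -1.01 ± 0.168, adjusted p = 5.1e-05, at 8 h and -0.63 ± 0.167, adjusted p = 0.00734, at 24 h, and stood at -0.09 ± 0.166, adjusted p = 0.763, at 4 h and -0.13 ± 0.166, adjusted p = 0.717, at 48 h. It was higher at 4 h than at 2 h (0.51 ± 0.166, adjusted p = 0.0403) and lower at 8 h than at 4 h (-0.92 ± 0.167, adjusted p = 0.00129). The first of these was lost without 2 h tumors 2, 3 or 4 or 4 h tumors 2 or 4 (0.46 to 0.53), and the 24 h call was lost in a fit of the compared groups alone.

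HSP90AA1 ranged from 587 to 1216 CPM and changed by -0.38 ± 0.134, adjusted p = 0.0376, at 2 h, -0.44 ± 0.134, adjusted p = 0.0114, at 8 h and -0.44 ± 0.134, adjusted p = 0.0189, at 24 h. These calls were lost, for 2 h, without vehicle tumors 1, 2 or 3 or 2 h tumors 1, 2 or 4 (-0.41 to -0.31), for 8 h, without vehicle tumor 2 (-0.34), and for 24 h, without vehicle tumor 2 or 24 h tumors 2 or 4 (-0.41 to -0.32). HSP90AB1 made up 57.1, 53.4, 53.4 and 56.8% of the TPM of the pair in vehicle tumors and 48.97, 45.9, 40.95 and 44.4% at 8 h. The 8 h shares were all below the vehicle shares, and those at 48 h, 57.7, 58.7, 58.3 and 58.04%, were all above them. At 24 h the share was 37.8, 58.8, 54.8 and 53.7%, lowest in tumor 1, the tumor with the most mitochondrially encoded mRNA. The shares were not tested.

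All 3 mitochondrial chaperones were lower at 8 and 24 h, and HSPD1 and HSPA9 also at 2 h. HSPD1 and HSPE1, the ring and lid of the mitochondrial chaperonin, lie head to head on chromosome 2, and HSPA9 (mortalin) is the HSP70 of the matrix and of the import motor. HSPD1 stood at 741, 691, 524 and 597 CPM in vehicle tumors 1 to 4 and at 397, 433, 369 and 408 CPM at 2 h. HSPD1 was at 494, 467, 481 and 558 CPM at 4 h and 296, 282, 205 and 236 CPM at 8 h. Levels of HSPD1 were 278, 272, 406 and 274 CPM at 24 h and 445, 409.8, 517 and 355 CPM at 48 h. Every tumor at 2, 8, 24 and 48 h was below the lowest vehicle tumor, with 24 h tumor 3 above the other tumors of its time. HSPD1 changed by -0.67 ± 0.152, adjusted p = 0.00294, at 2 h, -1.32 ± 0.154, adjusted p = 8.1e-07, at 8 h, -1.05 ± 0.153, adjusted p = 4.4e-05, at 24 h and -0.56 ± 0.152, adjusted p = 0.0181, at 48 h, and was at -0.35 ± 0.151, adjusted p = 0.12, at 4 h. The 48 h call was lost without vehicle tumors 1 or 2 or 48 h tumors 2 or 4 (-0.54 to -0.48) and on either log2 TPM scale.

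HSPE1 stood at 144, 139.8, 93.3 and 114 CPM in vehicle tumors 1 to 4 and at 82.8, 98.1, 92.8 and 97.2 CPM at 2 h. HSPE1 was at 106, 110, 93.5 and 121 CPM at 4 h and 83.6, 85.4, 56.4 and 83.5 CPM at 8 h. Levels of HSPE1 were 97.7, 59.5, 92.3 and 62.9 CPM at 24 h and 95.5, 90.4, 104 and 90.01 CPM at 48 h. HSPE1 tumors at 2, 4, 24 and 48 h overlapped vehicle, and those at 8 h did not. HSPE1 changed by -0.67 ± 0.165, adjusted p = 0.00227, at 8 h and -0.65 ± 0.165, adjusted p = 0.00545, at 24 h. The ratio of HSPD1 to HSPE1 in TPM was 0.703, 0.681, 0.787 and 0.71 in vehicle tumors and 0.488, 0.455, 0.503 and 0.417 at 8 h, all lower. HSPA9 stood at 512, 465, 386 and 389 CPM in vehicle tumors 1 to 4 and at 315, 272, 296 and 303 CPM at 2 h. HSPA9 was at 355, 419, 348 and 411 CPM at 4 h and 217, 209, 159.7 and 175 CPM at 8 h. Levels of HSPA9 were 198, 271, 413 and 270.4 CPM at 24 h and 400.5, 348, 402 and 299 CPM at 48 h. HSPA9 lay below vehicle in all tumors at 2 and 8 h and overlapped it at the other times. It changed by -0.56 ± 0.168, adjusted p = 0.0164, at 2 h, -1.20 ± 0.17, adjusted p = 8.4e-06, at 8 h and -0.60 ± 0.168, adjusted p = 0.0103, at 24 h. HSPA9 was the sole gene of the 36 called between 8 and 24 h (0.60 ± 0.168, adjusted p = 0.0305), and that call was lost without vehicle tumor 2, 8 h tumors 3 or 4 or 24 h tumors 2, 3 or 4 (0.36 to 0.62). The 2 h call of HSPA9 was lost without vehicle tumors 1 or 2 or 2 h tumor 2 (-0.53 to -0.48) and the 24 h call without vehicle tumor 1 (-0.52). All 3 genes were lower at 8 h than at 4 h (-0.97 ± 0.153 for HSPD1, -1.01 ± 0.169 for HSPA9 and -0.48 ± 0.165 for HSPE1, the last lost without 4 h tumors 2 or 4 or 8 h tumor 3 (-0.47 to -0.36)).

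J proteins, which recruit HSP70 to its clients, differed in their calls, and differences between them were not tested. Of the 4 genes, 3, 1, 3, 4 and 4 had negative log2 fold changes in order of time. DNAJA1 and DNAJB1 were lower at 8 h, DNAJB4 was higher at 4 h, and DNAJA2 was not called at any time. DNAJA1 stood at 286, 314, 280.5 and 272 CPM in vehicle tumors 1 to 4 and at 245, 183, 191 and 191 CPM at 2 h. DNAJA1 was at 226, 422, 246 and 262 CPM at 4 h and 204, 192, 126 and 205 CPM at 8 h. Levels of DNAJA1 were 121, 185, 278 and 225 CPM at 24 h and 265, 239, 276 and 244 CPM at 48 h. All 2 h and 8 h tumors were below vehicle, and 4 h tumor 2 was the highest of the 24. DNAJA1 changed by -0.67 ± 0.209, adjusted p = 0.013, at 8 h, and its 2 h value of -0.51 ± 0.209, adjusted p = 0.0735, did not pass. That 8 h call did not hold without vehicle tumor 2 or 8 h tumor 3 (-0.60 to -0.53). DNAJB1, the J protein most tied to the stress response, ranged from 62.8 to 186 CPM and changed by -0.80 ± 0.198, adjusted p = 0.00232, at 8 h and -0.64 ± 0.197, adjusted p = 0.0189, at 24 h, the second lost without vehicle tumors 2 or 3 or 24 h tumor 1 (-0.58 to -0.48). DNAJA2 ranged from 78.98 to 200.1 CPM, with its highest value in 4 h tumor 2. All its 8 h tumors (78.98 to 114.4 CPM) were below all its vehicle tumors (122.2 to 143.9 CPM).

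DNAJB4 was a low-level gene. DNAJB4 stood at 13.7, 14.1, 15.03 and 10.52 CPM in vehicle tumors 1 to 4 and at 18.8, 10.8, 9.72 and 15.5 CPM at 2 h. DNAJB4 was at 19.1, 35.03, 21.8 and 23.8 CPM at 4 h and 14.2, 18.4, 9.403 and 17.1 CPM at 8 h. Levels of DNAJB4 were 9.23, 9.43, 16.4 and 17.7 CPM at 24 h and 12.5, 9.09, 11.6 and 8.98 CPM at 48 h. All 4 h tumors exceeded all vehicle tumors, tumor 2 by the most, and the other times overlapped vehicle. DNAJB4 changed by 0.90 ± 0.253, adjusted p = 0.0175, at 4 h, rose between 2 and 4 h (0.86 ± 0.254, adjusted p = 0.0267) and fell between 4 and 8 h (-0.75 ± 0.254, adjusted p = 0.0319). Its call at 4 h did not hold without vehicle tumor 4 or 4 h tumor 2 (0.71 to 0.83) and on either log2 TPM scale. The difference between 2 and 4 h was lost without 2 h tumors 2, 3 or 4 or 4 h tumor 2 (0.67 to 0.92) and that between 4 and 8 h without 4 h tumors 2 or 4 or 8 h tumors 1 or 3 (-0.75 to -0.55). The 4 h tumor 2 also held the most fibroblast marker RNA, and the part of that in the DNAJB4 values was not tested.

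HSPB1 (HSP27), an ATP-independent holdase that is also a phosphorylation target downstream of p38 kinase, was the single gene of the 36 that was higher than vehicle at all 5 times. It lies on chromosome 7, 76302544 to 76304295, plus strand. HSPB1 stood at 264, 362, 359 and 272 CPM in vehicle tumors 1 to 4 and at 342, 698, 819 and 806 CPM at 2 h. HSPB1 was at 500.5, 572, 488 and 476 CPM at 4 h and 874, 1171, 1187 and 975 CPM at 8 h. Levels of HSPB1 were 803, 593, 755 and 761 CPM at 24 h and 425, 656, 427 and 706 CPM at 48 h. The lowest 2 h tumor, tumor 1, was below the highest vehicle tumor, and at 4, 8, 24 and 48 h every tumor was above every vehicle tumor. HSPB1 changed by 1.08 ± 0.218, adjusted p = 0.00119, at 2 h, 0.70 ± 0.217, adjusted p = 0.0314, at 4 h, 1.74 ± 0.222, adjusted p = 2.5e-06, at 8 h, 1.21 ± 0.219, adjusted p = 0.000376, at 24 h and 0.82 ± 0.217, adjusted p = 0.0171, at 48 h. At 8 h its fitted level was 3.35 times that of vehicle. It was higher at 8 h than at 4 h (1.05 ± 0.218, adjusted p = 0.00243). The 4 h call was lost without vehicle tumors 1 or 4 or 4 h tumors 1 or 2 (0.65 to 0.70) and without the 6 tumors richest in muscle or fibroblast markers, and the 48 h call was lost without vehicle tumors 1 or 4 or 48 h tumors 2 or 4 (0.68 to 0.76). At 48 h tumors 2 and 4 were higher than tumors 1 and 3.

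CRYAB, a small heat shock protein abundant in muscle and lens, was not called by edgeR at any time. CRYAB stood at 1.71, 11.7, 2.54 and 2.173 CPM in vehicle tumors 1 to 4 and at 29.8, 1.41, 3.61 and 2.98 CPM at 2 h. CRYAB was at 10.49, 21.1, 4.82 and 41.5 CPM at 4 h and 4.11, 102, 3.76 and 25.3 CPM at 8 h. Levels of CRYAB were 5.05, 2.12, 6.77 and 125 CPM at 24 h and 1.496, 2.18, 2.33 and 3.24 CPM at 48 h. The highest values came from single tumors: 24 h tumor 4, 8 h tumors 2 and 4, 4 h tumors 2 and 4 and 2 h tumor 1, with vehicle tumor 2 highest among vehicle. Those tumors, apart from 4 h tumor 2, were also the ones with the highest skeletal muscle marker sums, 7777 CPM in 2 h tumor 1, 3920 CPM in 4 h tumor 4, 5333 and 1613 CPM in 8 h tumors 2 and 4, 5077 CPM in 24 h tumor 4 and 739 CPM in vehicle tumor 2. All other tumors were at or below 408 CPM of muscle markers and at or below 10.5 CPM of CRYAB, except 4 h tumor 2, which held 30140 CPM of fibroblast markers. The log2 fold changes were 1.05 ± 1.29, adjusted p = 0.582, at 2 h, 2.10 ± 1.3, adjusted p = 0.299, at 4 h, 2.90 ± 1.33, adjusted p = 0.0855, at 8 h, 2.94 ± 1.33, adjusted p = 0.108, at 24 h and -0.98 ± 1.36, adjusted p = 0.74, at 48 h. DESeq2 called CRYAB higher at 8 h (2.94, adjusted p = 0.0256) and 24 h (2.94, adjusted p = 0.0363). Without the 6 tumors richest in muscle or fibroblast markers the edgeR values were -0.22, adjusted p = 0.825, at 8 h and 0.02, adjusted p = 0.987, at 24 h.

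**Figure D3:**
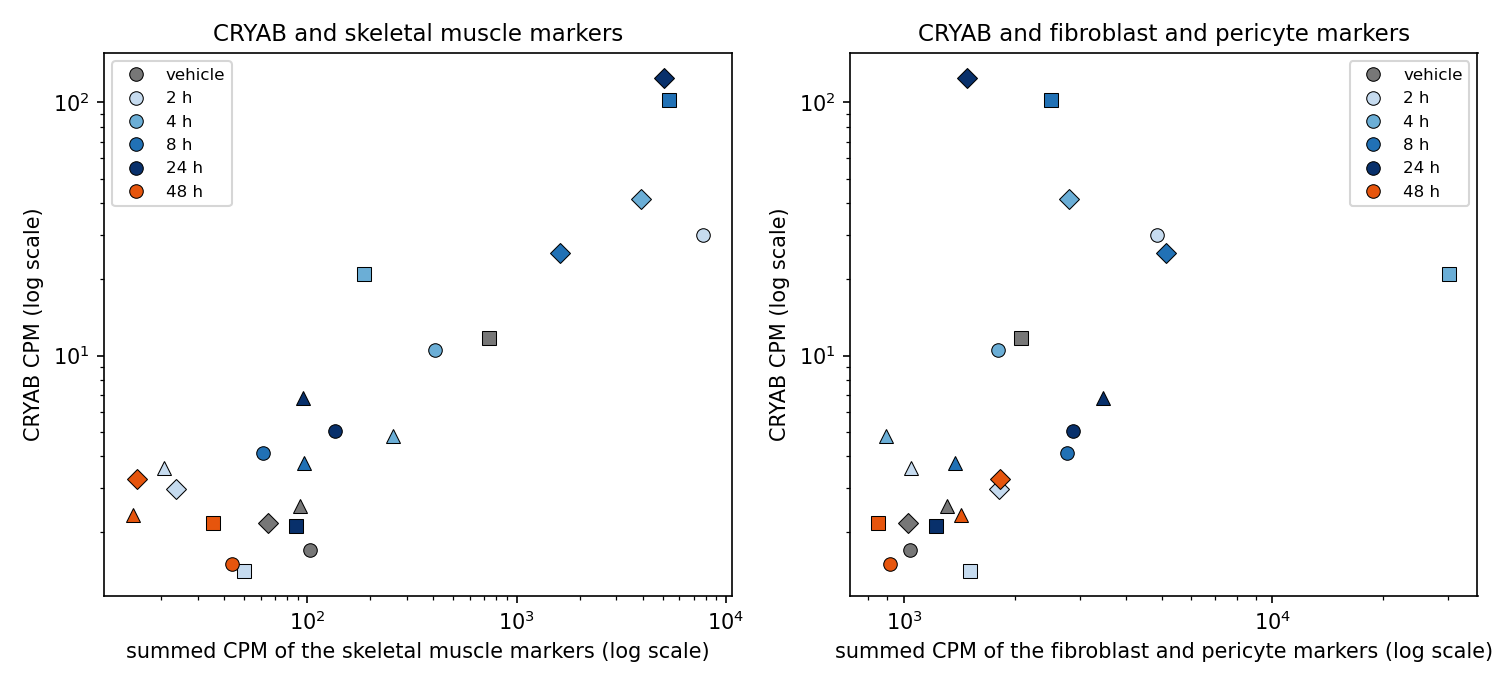
CRYAB level (vertical axis, CPM, log scale) in each of the 24 tumors against the summed level of 14 skeletal muscle markers (left, horizontal axis, CPM, log scale) and of 10 fibroblast and pericyte markers (right, same axes). Colours give the group and shapes tumors 1 to 4. The highest CRYAB values, 102 and 125 CPM, belong to 8 h tumor 2 and 24 h tumor 4, which have muscle marker sums of 5333 and 5077 CPM.

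HSPB8, which works with BAG3 in chaperone-assisted autophagy, was close to the detection limit, at 0 to 1.82 CPM with no count in 6 tumors, and was not called at any time. BAG3, the cochaperone that links HSP70 to small heat shock proteins, ranged from 23.03 to 57.3 CPM and was lower at 8 h (-0.44 ± 0.174, adjusted p = 0.0434) and 24 h (-0.49 ± 0.174, adjusted p = 0.0387), with overlap between groups at both times. The 8 h call of BAG3 was lost without vehicle tumors 2, 3 or 4, 2 h tumor 1, 4 h tumors 3 or 4, 8 h tumors 3 or 4, 24 h tumors 2, 3 or 4 or 48 h tumor 3 (-0.47 to -0.31) and the 24 h call without vehicle tumors 2, 3 or 4, 24 h tumors 1 or 2 or 48 h tumor 3 (-0.53 to -0.36).

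HSF1 RNA was low at 4 h only among the times compared with vehicle. HSF1 stood at 97.3, 109, 113 and 106 CPM in vehicle tumors 1 to 4 and at 91.4, 136, 125 and 142 CPM at 2 h. HSF1 was at 69.7, 61.9, 69.4 and 66.9 CPM at 4 h and 102, 94.9, 110.3 and 91.8 CPM at 8 h. Levels of HSF1 were 110.3, 92.1, 85.03 and 96.8 CPM at 24 h and 100.1, 107, 121 and 121 CPM at 48 h. All 4 h tumors lay below all other tumors of the study, and at 2, 8, 24 and 48 h the groups overlapped vehicle. HSF1 changed by -0.66 ± 0.121, adjusted p = 0.000482, at 4 h, fell between 2 and 4 h (-0.88 ± 0.122, adjusted p = 0.000184) and rose between 4 and 8 h (0.58 ± 0.121, adjusted p = 0.0026). All 3 calls remained on leaving out each tumor, and the rise to 8 h was lost on either log2 TPM scale and without the 6 tumors richest in muscle or fibroblast markers. In that last setting 0 of all 18896 genes tested were called from 4 to 8 h. At the other times HSF1 was at 0.22 ± 0.121 (2 h), -0.09 ± 0.121 (8 h), -0.15 ± 0.121 (24 h) and 0.08 ± 0.121 (48 h). HSF1 activity rests largely on trimerisation and phosphorylation of the protein, which RNA levels do not show.

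Of the 6 HSP90 cochaperones, STIP1, FKBP4 and PTGES3 were lower at 2, 8 and 24 h, CHORDC1 at 4, 8 and 24 h and AHSA1 at 8 h, while CDC37 was not called at any time. CDC37, the adaptor that brings kinases such as RAF to HSP90, ranged from 115 to 246 CPM, with log2 fold changes of 0.20, -0.13, 0.26, 0.16 and 0.11 in order of time. FKBP4 stood at 112, 124, 104 and 89.9 CPM in vehicle tumors 1 to 4 and at 73.7, 76.6, 72.9 and 82.8 CPM at 2 h. FKBP4 was at 85.97, 100.1, 90.4 and 112 CPM at 4 h and 67.4, 59.3, 46.4 and 54.2 CPM at 8 h. Levels of FKBP4 were 44.6, 62.1, 77.8 and 63.4 CPM at 24 h and 93.8, 97.8, 103 and 90.2 CPM at 48 h. FKBP4, an immunophilin of steroid receptor complexes, was below vehicle in all tumors at 2, 8 and 24 h and back in the vehicle range at 48 h. It changed by -0.49 ± 0.142, adjusted p = 0.0144, at 2 h, -0.92 ± 0.143, adjusted p = 2.7e-05, at 8 h and -0.79 ± 0.142, adjusted p = 0.000365, at 24 h, and rose between 24 and 48 h (0.63 ± 0.142, adjusted p = 0.014). The 2 h call was lost without vehicle tumor 2 (-0.41) and the rise to 48 h without 48 h tumor 3 (0.60).

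PTGES3 (p23), which stabilises the closed form of HSP90, had the highest level of these cochaperones per unit length. PTGES3 stood at 318, 316, 275 and 276 CPM in vehicle tumors 1 to 4 and at 193, 188, 179 and 197 CPM at 2 h. PTGES3 was at 201, 258, 218 and 250.4 CPM at 4 h and 156, 130.1, 99.95 and 118 CPM at 8 h. Levels of PTGES3 were 94.1, 173, 213 and 159.6 CPM at 24 h and 244, 219.5, 238 and 216 CPM at 48 h. No IK-595 tumor reached the lowest vehicle tumor at any time. PTGES3 changed by -0.65 ± 0.169, adjusted p = 0.0076, at 2 h, -1.23 ± 0.171, adjusted p = 7.2e-06, at 8 h and -0.89 ± 0.17, adjusted p = 0.000638, at 24 h, and its values of -0.35 ± 0.169, adjusted p = 0.162, at 4 h and -0.37 ± 0.169, adjusted p = 0.187, at 48 h did not pass. STIP1 stood at 266, 265, 199 and 212 CPM in vehicle tumors 1 to 4 and at 134, 147, 150.4 and 145 CPM at 2 h. STIP1 was at 173, 176, 159 and 197 CPM at 4 h and 140.5, 115, 85.5 and 111 CPM at 8 h. Levels of STIP1 were 95.9, 120, 185 and 137 CPM at 24 h and 202, 179, 201 and 192 CPM at 48 h. STIP1 (HOP), the bridge from HSP70 to HSP90, was below vehicle in all tumors up to 24 h. It changed by -0.71 ± 0.161, adjusted p = 0.00296, at 2 h, -1.06 ± 0.162, adjusted p = 2.3e-05, at 8 h and -0.81 ± 0.162, adjusted p = 0.000898, at 24 h. CHORDC1, which binds HSP90, changed by -0.49 ± 0.148, adjusted p = 0.0261, at 4 h, -0.48 ± 0.148, adjusted p = 0.0108, at 8 h and -0.48 ± 0.148, adjusted p = 0.0182, at 24 h, its 4 h call being lost without vehicle tumors 1, 2 or 4 or 4 h tumors 3 or 4 (-0.48 to -0.40) and its 24 h call without 24 h tumor 2 (-0.38). AHSA1, the activator of the HSP90 ATPase, was lower at 8 h (-0.48 ± 0.189, adjusted p = 0.0435), a call lost without vehicle tumors 1, 2, 3 or 4, 2 h tumor 1, 4 h tumor 4, 8 h tumors 1, 3 or 4, 24 h tumors 3 or 4 or 48 h tumor 3 (-0.53 to -0.33).

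All 8 CCT genes were lower than vehicle at 2, 8 and 24 h and none was called at 4 h, as described below for each subunit. Their median log2 fold changes were, in order of time, -0.76, -0.27, -1.18, -0.86 and -0.52. At 4 h the edgeR count of 0 stood beside 3 lower genes with p under 0.05 before adjustment, and DESeq2 called 0. At 48 h CCT6A and CCT8 were lower, 7 of the 8 were lower at an unadjusted p under 0.05, and DESeq2 called 3. The summed TPM of the 8 genes was 1770, 1685, 1374 and 1455 in vehicle tumors, 1050, 888, 768 and 752 at 2 h and 1170, 1462, 1177 and 1530 at 4 h. It was 801, 732, 504 and 677 at 8 h, 613, 821, 1257 and 904 at 24 h and 1225, 946, 1275 and 961 at 48 h. Every tumor at 2, 8, 24 and 48 h was below every vehicle tumor, and the 4 h tumors overlapped vehicle. These TPM sums too had no TMM scaling between tumors.

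CCT6A, the zeta subunit, had the highest mean TPM of the ring and its smallest p over the 5 IK-595 times (F test, adjusted p = 0.00242). CCT6A stood at 462, 419, 321 and 357 CPM in vehicle tumors 1 to 4 and at 247, 233, 213 and 191 CPM at 2 h. CCT6A was at 281, 311, 278 and 333 CPM at 4 h and 193, 172, 136 and 138 CPM at 8 h. Levels of CCT6A were 178, 217, 316 and 203 CPM at 24 h and 289, 244, 312 and 234 CPM at 48 h. Every tumor at 2, 8, 24 and 48 h was below the lowest vehicle tumor, with 24 h tumor 3 close to it. CCT6A changed by -0.82 ± 0.165, adjusted p = 0.0012, at 2 h, -1.29 ± 0.167, adjusted p = 3.1e-06, at 8 h, -0.77 ± 0.165, adjusted p = 0.00162, at 24 h and -0.53 ± 0.164, adjusted p = 0.0405, at 48 h, the last lost without vehicle tumors 1, 2 or 4, 2 h tumors 2 or 3, 4 h tumor 3, 24 h tumors 2 or 4 or 48 h tumors 1, 2 or 4 (-0.57 to -0.44). That call was also lost with no low-count filter, on either log2 TPM scale, with the replicate block, with the muscle marker covariate and without the 6 tumors richest in muscle or fibroblast markers.

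CCT2, the beta subunit, lay on average furthest below vehicle at 2 h within the ring. CCT2 stood at 184, 175, 121 and 150.2 CPM in vehicle tumors 1 to 4 and at 106, 70.5, 71.4 and 69.8 CPM at 2 h. CCT2 was at 106, 194, 89.5 and 129 CPM at 4 h and 65.7, 81.7, 36.6 and 70.7 CPM at 8 h. Levels of CCT2 were 66.5, 62.6, 133 and 81.6 CPM at 24 h and 104, 73.8, 112 and 91.7 CPM at 48 h. The 2 h and 8 h tumors were below vehicle, and 4 h tumor 2 and 24 h tumor 3 stood above the other tumors of their times. CCT2 changed by -0.99 ± 0.265, adjusted p = 0.00884, at 2 h, -1.31 ± 0.267, adjusted p = 0.000467, at 8 h and -0.88 ± 0.264, adjusted p = 0.017, at 24 h, the last lost without vehicle tumors 1 or 2 or 24 h tumors 1, 2 or 4 (-0.85 to -0.75). CCT4, the delta subunit, stood at 227, 232, 185 and 194 CPM in vehicle tumors 1 to 4 and at 133, 104, 103 and 102 CPM at 2 h. CCT4 was at 148, 219, 143 and 189.7 CPM at 4 h and 101, 93.1, 56.4 and 83.96 CPM at 8 h. Levels of CCT4 were 63.7, 100.1, 156 and 98.9 CPM at 24 h and 164, 129, 158 and 135 CPM at 48 h. CCT4 fell in all tumors at 2, 8, 24 and 48 h below the lowest vehicle value. It changed by -0.92 ± 0.208, adjusted p = 0.00285, at 2 h, -1.32 ± 0.21, adjusted p = 3.3e-05, at 8 h and -1.0 ± 0.209, adjusted p = 0.00133, at 24 h, and it was the single CCT gene called between 2 and 4 h (0.66 ± 0.208, adjusted p = 0.0351), a call lost without 2 h tumors 2, 3 or 4 or 4 h tumors 2 or 4 (0.56 to 0.65). All 8 CCT genes were higher at 4 h than at 2 h at an unadjusted p under 0.05, and DESeq2 called 5.

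CCT5, the epsilon subunit, had the largest fall of the ring at 8 h. CCT5 stood at 379.5, 330, 229 and 288 CPM in vehicle tumors 1 to 4 and at 179, 183, 171 and 137 CPM at 2 h. CCT5 was at 232, 218, 212 and 263 CPM at 4 h and 139.8, 138, 84.9 and 113 CPM at 8 h. Levels of CCT5 were 140.1, 142, 228 and 159 CPM at 24 h and 231, 177, 261 and 179.8 CPM at 48 h. All tumors at 2, 8 and 24 h were below the lowest vehicle tumor, and 48 h tumors overlapped vehicle. CCT5 changed by -0.87 ± 0.187, adjusted p = 0.00189, at 2 h, -1.37 ± 0.189, adjusted p = 6.8e-06, at 8 h and -0.87 ± 0.187, adjusted p = 0.00162, at 24 h. CCT8, the theta subunit, stood at 296, 285, 253 and 245 CPM in vehicle tumors 1 to 4 and at 191, 169.7, 153 and 151 CPM at 2 h. CCT8 was at 201, 237, 185 and 221 CPM at 4 h and 141, 150.1, 89.8 and 134 CPM at 8 h. Levels of CCT8 were 120.4, 128, 184 and 145 CPM at 24 h and 192, 154, 217 and 162 CPM at 48 h. CCT8 was below vehicle in every IK-595 tumor. It changed by -0.70 ± 0.158, adjusted p = 0.00278, at 2 h, -1.06 ± 0.159, adjusted p = 1.7e-05, at 8 h, -0.90 ± 0.158, adjusted p = 0.000291, at 24 h and -0.58 ± 0.157, adjusted p = 0.0203, at 48 h, the last lost without vehicle tumors 1 or 2 or 48 h tumors 2 or 4 (-0.54 to -0.50), on either log2 TPM scale and with the muscle marker covariate.

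The other 3 subunits had smaller falls at 2 and 8 h, a difference between subunits that was not tested. TCP1 (alpha) was at -0.54 ± 0.2, -0.77 ± 0.201 and -0.59 ± 0.2 at 2, 8 and 24 h, CCT3 (gamma) at -0.49 ± 0.18, -0.83 ± 0.181 and -0.60 ± 0.18, and CCT7 (eta) at -0.54 ± 0.154, -0.89 ± 0.155 and -0.84 ± 0.155. The 2 h calls were lost, for TCP1, without vehicle tumors 1, 2, 3 or 4, 2 h tumors 2, 3 or 4, 8 h tumors 1 or 4, 24 h tumors 2 or 4 or 48 h tumors 1, 2, 3 or 4 (-0.59 to -0.49), for CCT3, without vehicle tumors 1, 2 or 4, 2 h tumors 2, 3 or 4, 4 h tumor 1, 8 h tumors 1 or 4, 24 h tumors 2 or 4 or 48 h tumors 1 or 3 (-0.54 to -0.42) and, for CCT7, without vehicle tumor 1 (-0.50). The 24 h calls were lost, for TCP1, without vehicle tumors 1, 2 or 3 or 24 h tumors 1, 2 or 4 (-0.63 to -0.50) and, for CCT3, without vehicle tumors 1 or 2 or 24 h tumors 1, 2 or 4 (-0.56 to -0.51). The ring contains each subunit in equal number, whereas the mean TPM ran from 128 for CCT4 to 258 for CCT5 in vehicle tumors and from 42.9 for CCT4 to 138 for CCT6A at 8 h, ratios of 2.01 and 3.22.

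**Figure D4:**
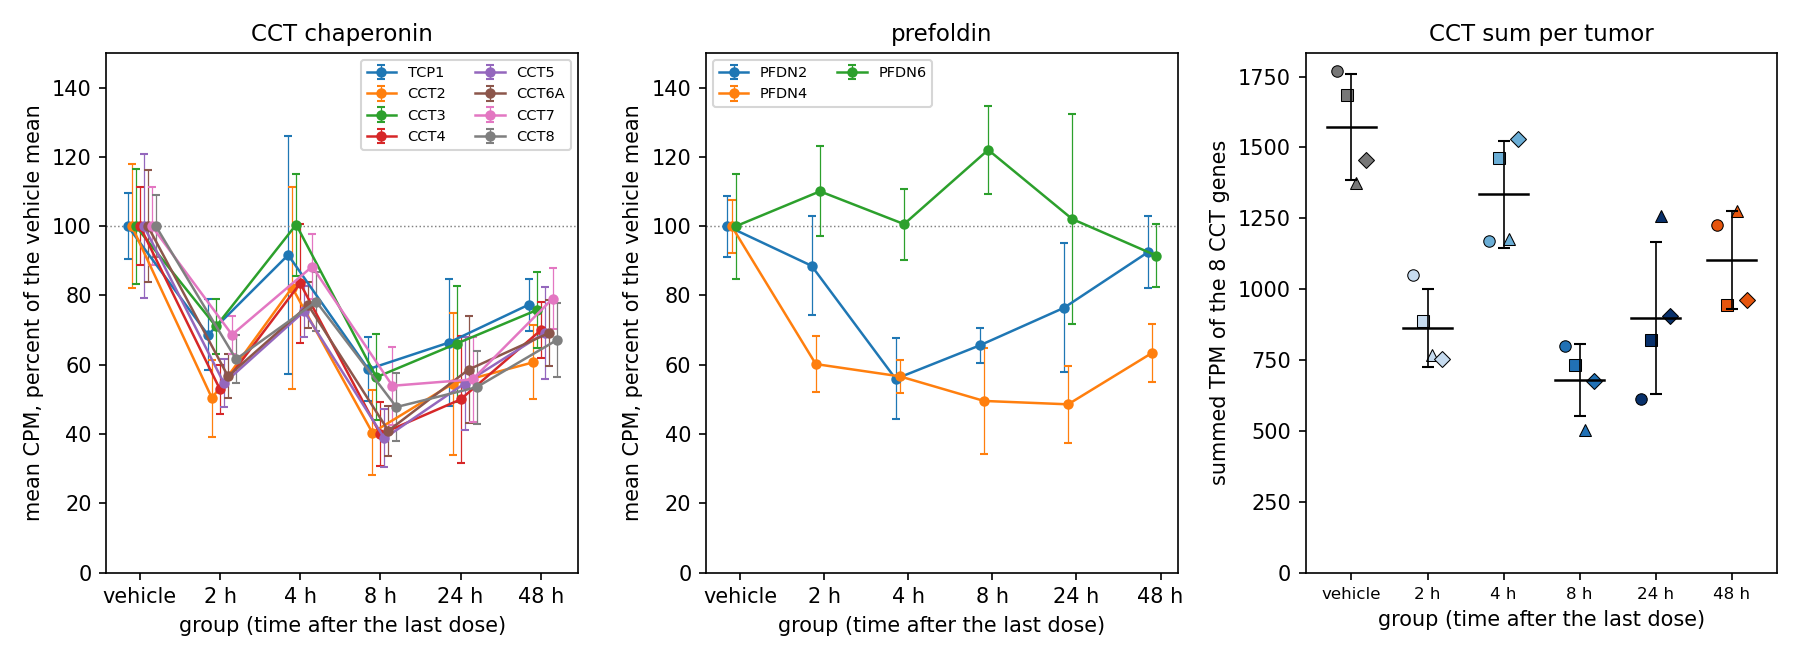
Mean level of each CCT gene (left) and each prefoldin gene (middle) as percent of its vehicle mean (vertical axes, CPM based, bars are the SD of 4 tumors), and the summed TPM of the 8 CCT genes in each tumor (right, bars are mean and SD), by group. The CCT genes dip at 2 h, lie closer to vehicle at 4 h (CCT5 at 75.4 percent and CCT3 at 100.4 percent in the fit) and are lowest at 8 h, whereas PFDN2 is lowest at 4 h, PFDN4 stays low and PFDN6 stays near or above 100 percent.

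Of the 3 prefoldin genes, PFDN4 was lower at every time, PFDN2 at 4 and 8 h and PFDN6 at none. Differences from the CCT genes were not tested. PFDN4 stood at 20.5, 23, 20.5 and 19.2 CPM in vehicle tumors 1 to 4 and at 12.3, 14.3, 10.3 and 13.1 CPM at 2 h. PFDN4 was at 12.8, 12.2, 10.47 and 11.7 CPM at 4 h and 14.2, 10.03, 6.41 and 10.54 CPM at 8 h. Levels of PFDN4 were 7.33, 9.04, 12 and 12.03 CPM at 24 h and 15.7, 11.7, 12.3 and 13.1 CPM at 48 h. PFDN4 was below vehicle in all 20 IK-595 tumors and was the single gene of the 36 called lower at all 5 times. It changed by -0.73 ± 0.188, adjusted p = 0.00666, at 2 h, -0.82 ± 0.188, adjusted p = 0.00384, at 4 h, -1.01 ± 0.19, adjusted p = 0.000194, at 8 h, -1.04 ± 0.189, adjusted p = 0.000409, at 24 h and -0.66 ± 0.187, adjusted p = 0.026, at 48 h. The 48 h call was lost without vehicle tumors 1 or 2 or 48 h tumors 2, 3 or 4 (-0.66 to -0.60), on log2(TPM + 0.1) and with the muscle marker covariate. Both the 4 h and the 48 h call were lost without the 6 tumors richest in muscle or fibroblast markers. PFDN2 stood at 59.97, 67.97, 65.99 and 56.04 CPM in vehicle tumors 1 to 4 and at 42.3, 61.7, 57 and 60.4 CPM at 2 h. PFDN2 was at 35.01, 44.4, 26.6 and 33.8 CPM at 4 h and 38.2, 41.6, 45.3 and 38.9 CPM at 8 h. Levels of PFDN2 were 62.2, 36.5, 51.96 and 40.3 CPM at 24 h and 51.9, 53.2, 65.7 and 60.4 CPM at 48 h. PFDN2 was lowest at 4 h, when all its tumors were below vehicle, and 2 of its 4 tumors at 48 h were back in the vehicle range. It changed by -0.84 ± 0.163, adjusted p = 0.000854, at 4 h and -0.61 ± 0.162, adjusted p = 0.00421, at 8 h, and fell between 2 and 4 h (-0.67 ± 0.163, adjusted p = 0.0105). PFDN6 ranged from 20.2 to 37.9 CPM and was not called at any time, with 0.29 ± 0.159 at 8 h.

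Side by side, the heat shock protein group of 25 had 9 genes lower and 1 higher at 2 h, 3 and 2 at 4 h, 16 and 1 at 8 h, 12 and 1 at 24 h and 1 and 1 at 48 h. The CCT group of 8 had 8, 0, 8, 8 and 2 lower at these times, and the prefoldin group of 3 had 1, 2, 2, 1 and 1. Of all genes tested, 13.6, 8.39, 23.7, 13.8 and 4.46% were lower at these times. Those higher made up 13.4, 6.74, 20.6, 13.7 and 5.52%. The counts of the heat shock protein group at 4 and 48 h were near these shares. Median log2 fold changes were -0.64 for the heat shock protein group, -1.18 for CCT and -0.61 for prefoldin at 8 h, and -0.14, -0.27 and -0.82 at 4 h, beside 0.07 and 0.03 over all genes tested. The prefoldin median at 4 h rests on PFDN2 and PFDN4, and 6 other prefoldin and prefoldin-like genes had a median of -0.15 there, with 1 of them called lower. The differences between the groups were not tested.

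Between successive IK-595 times the largest shift was from 4 to 8 h, when 22 of the 36 genes were lower (15.5% of all genes) and 2, HSPB1 and HSF1, were higher (11.6% of all genes). These 22 were all 8 CCT genes (-1.06 ± 0.209 for CCT4 to -0.64 ± 0.2 for TCP1) and 14 of the heat shock protein group, with no prefoldin gene among them by edgeR, DESeq2 or at an unadjusted p under 0.05. The count was 14 without 4 h tumor 2, where 2054 of all 18673 genes tested were lower, against 2834 of 18242 with all tumors. It was 0 in the 2 against 2 tumors left without the 6 richest in muscle or fibroblast markers. In that fit none of the 18896 genes tested was called in either direction, so the 0 is not particular to the chaperone genes. Of the calls from 4 to 8 h, those lost without single tumors were AHSA1 without 4 h tumors 2 or 4 or 8 h tumors 1 or 3 (-0.57 to -0.36), DNAJA1 without 4 h tumor 2 or 8 h tumor 3 (-0.53 to -0.43), HSP90AA1 without 4 h tumors 1, 2 or 4 or 8 h tumors 1, 3 or 4 (-0.39 to -0.31), HSPA4 without 4 h tumors 2 or 4 or 8 h tumor 3 (-0.60 to -0.50) and TCP1 without 4 h tumor 2 or 8 h tumor 3 (-0.55 to -0.36), besides those given above. From 2 to 4 h 4 genes were higher, HSPA8, HSP90AB1, DNAJB4 and CCT4 (6.89% of all genes), and 2 were lower, HSF1 and PFDN2 (9.0% of all genes). The 4 fell to 0 without 2 h tumor 2, 3 or 4 or 4 h tumor 2 and to 2 without 4 h tumor 4, and rose to 9 without 2 h tumor 1 or 24 h tumor 1 and to 7 without 24 h tumor 3. Over all genes tested, those higher numbered 1257 with all tumors and 510, 505, 332 and 842 in the fits with 0. They numbered 734 without 4 h tumor 4, 2265 and 2036 in the fits with 9 and 1610 without 24 h tumor 3.

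From 8 to 24 h 1 gene was higher (5.3% of all genes) and 0 lower (1.58% of all genes), while before adjustment edgeR had 5 and 1 with p under 0.05 and DESeq2 called 2 and 0. The count of higher genes was 5 without 24 h tumor 1 and 3 without 8 h tumor 1, and it was 0 without vehicle tumor 2, 8 h tumor 3 or 4, or 24 h tumor 2, 3 or 4. Over all genes tested it was 967 with all tumors, 1993 without 24 h tumor 1 and 957 without 8 h tumor 1. In the fits with 0 it was 836, 875, 519, 692, 519 and 733. The count of lower genes was 1 without 24 h tumor 1, beside 680 of all genes tested, against 289 with all tumors. From 24 to 48 h 2 genes were higher, HSPH1 and FKBP4 (2.47% of all genes), and 0 were lower (1.6% of all genes), while before adjustment edgeR had 10 and 1 with p under 0.05 and DESeq2 called 7 and 1. The 2 became 10 without 24 h tumor 3, 4 without 8 h tumor 3 and 1 without 48 h tumor 3. Over all genes tested, those higher numbered 451 with all tumors and 750, 496 and 178 in these fits. Over the 5 IK-595 times together, with no use of the vehicle tumors in the contrast, 20 of the 36 genes differed (37.4% of all genes), 7 of the 8 CCT genes among them. The 20 became 8 without the 6 tumors richest in muscle or fibroblast markers. The count over all genes was not taken for this F test in that fit. Calls over all genes fell there as well. Those higher from 2 to 4 h numbered 123, against 1257 with all tumors, and 0 were called from 4 to 8 h.

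Related genes outside the 36 were read from lists of 91 further chaperone genes, partners and clients, of which 89 were tested. Of these 23 were lower and 5 higher at 2 h, 7 and 1 at 4 h, 48 and 2 at 8 h, 31 and 1 at 24 h and 3 and 1 at 48 h, with the percentages of all genes as above. The 8 genes of actin and tubulin, the main clients of CCT, had 4, 0, 7, 4 and 1 members lower from 2 to 48 h. Among them TUBB changed by -1.09 ± 0.248, adjusted p = 0.00302, at 2 h, -1.11 ± 0.248, adjusted p = 0.00224, at 24 h and -0.87 ± 0.247, adjusted p = 0.0255, at 48 h, and TUBA1C by -1.04 ± 0.257, adjusted p = 0.0054, at 2 h and -1.56 ± 0.261, adjusted p = 5.9e-05, at 8 h. VBP1, a further prefoldin subunit, was lower at 24 h (-0.92 ± 0.263, adjusted p = 0.0125). Of 16 chaperones of the endoplasmic reticulum, 4, 0, 11, 5 and 0 were lower, with the J protein DNAJB9 at -1.37 ± 0.288, adjusted p = 0.000638, at 8 h. HSPA13, a microsomal HSP70, changed by -1.02 ± 0.269, adjusted p = 0.00805, at 2 h, -1.61 ± 0.275, adjusted p = 7.9e-05, at 8 h and -0.96 ± 0.268, adjusted p = 0.011, at 24 h.

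Some related genes rose. HSF4, a heat shock factor best known from the lens, changed by 1.87 ± 0.373, adjusted p = 0.00128, at 2 h, 2.06 ± 0.376, adjusted p = 0.00018, at 8 h and 1.57 ± 0.371, adjusted p = 0.00391, at 24 h, from a vehicle mean of 16.9 CPM to 70.8 CPM at 8 h with no overlap between tumors. DNAJB2, a J protein that targets clients to the proteasome, was higher at 2 h (0.74 ± 0.171, adjusted p = 0.00316), 8 h (0.64 ± 0.171, adjusted p = 0.00435) and 48 h (0.66 ± 0.171, adjusted p = 0.0147). BAG1, an exchange factor of HSP70, was higher at 2 h (0.52 ± 0.183, adjusted p = 0.0392) and 4 h (0.55 ± 0.183, adjusted p = 0.0429), with overlapping tumors. Among the called genes with a mean log2 CPM of at least 3, the largest falls at 4 h were those of GRPEL2 (-0.79 ± 0.189, adjusted p = 0.00534) and GRPEL1 (-0.69 ± 0.122, adjusted p = 0.00037), the exchange factors of mitochondrial HSP70, and DNAJB6 (-0.49 ± 0.138, adjusted p = 0.0161), which suppresses protein aggregation. At 48 h the cochaperones BAG2 (-0.71 ± 0.207, adjusted p = 0.0286) and CACYBP (-0.47 ± 0.152, adjusted p = 0.0487) were lower. The 7 of 89 related genes lower at 4 h and 3 of 89 at 48 h were near the shares of all genes, 8.39 and 4.46%. How the calls of related genes held without single tumors or under other settings is not given here.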

How the data were processed

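RNA with poly(A) tails from 24 AsPC-1 xenograft tumors was sequenced as paired reads, per the labels' protocols. The submitters' processing notes name bcl2fastq 2.17, FastQC 0.12.1, Salmon 0.14.1 and the build GRCh38.p13. The strand setting and the handling of mouse reads were not given in the sources used here, so mouse transcripts may count towards human genes. The authors deposited, for each tumor, estimated counts per gene and TPM, which scales them for length and depth. Of the non-zero estimated counts, 59.6% were whole within 0.0015, and all were rounded. Of 60230 gene IDs, 57972 matched GENCODE 29, and the 2258 others held 0.096% of counts. All 36 chaperone genes matched.

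After edgeR's low-count filter 18242 genes held 99.9% of counts. edgeR 4.0.16 (R 4.3.3; TMM scaling, quasi-likelihood tests, 1 fit of all 6 groups) gave each comparison with vehicle, each pair of successive IK-595 times, and 1 F test for any difference among the 5 IK-595 times. p-values were adjusted by Benjamini and Hochberg over all genes tested, and levels are CPM from the same scaling. Log2 CPM levels use a prior count of 2, which was not applied to the edgeR fold changes. The labels number 4 animals per group, and p-values measure the spread between these tumors. The edgeR procedure was also run on counts simulated for the vehicle and 8 h groups alone, with the same spread for every gene. That run held no tumors far from their group and so does not cover them. Alternatives used other scaling, DESeq2 1.42.0, other filters, limma 3.58.1 on log2(TPM + 1) and log2(TPM + 0.1), fits of only the compared groups, a replicate block, a muscle marker covariate, and leaving out tumors. Values of every tumor are given for the gene of each role with the smallest F test p or the highest mean TPM and for genes called with an absolute log2 fold change of at least 1. From the related lists, up to 3 genes per direction with the largest changes and a mean log2 CPM of at least 3 are named. HSPA1A and CRYAB, outside this rule, were given in full after their values were seen. The members and lists were chosen with earlier results of these data known. Promoters are from RefSeq.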

Additional observations from a re-analysis of the deposited data

Results flagged for a closer look

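Within single groups of 4 tumors, 17 of 216 combinations of gene and group held 1 tumor far from the other 3. Chance gives about 5%, or about 1 in 20, for independent values. The genes were measured in the same tumors, so the combinations are not independent and the 5% is no direct yardstick. More of them fell in 2 h tumor 1 than in any other tumor. In 2 h tumor 1 HSPA8 was at 778 CPM against 344 to 362 CPM in the others, HSPA4 was at 152 CPM against 108 to 115 CPM in the others, DNAJA1 was at 245 CPM against 183 to 191 CPM in the others, CRYAB was at 29.8 CPM against 1.41 to 3.61 CPM in the others, TCP1 was at 141 CPM against 106 to 108 CPM in the others, CCT2 was at 106 CPM against 69.8 to 71.4 CPM in the others and CCT4 was at 133 CPM against 102 to 104 CPM in the others. In 24 h tumor 3 HSPA4 was at 184 CPM against 101 to 114 CPM in the others and HSPD1 was at 406 CPM against 272 to 278 CPM in the others. In 8 h tumor 3 HSPE1 was at 56.4 CPM against 83.5 to 85.4 CPM in the others and DNAJA1 was at 126 CPM against 192 to 205 CPM in the others. In 4 h tumor 2 DNAJA2 was at 200.1 CPM against 103 to 112 CPM in the others. In 24 h tumor 4 HSPB8 was at 0.342 CPM against 0.673 to 0.71 CPM in the others and CRYAB was at 125 CPM against 2.12 to 6.77 CPM in the others. In vehicle tumor 2 CRYAB was at 11.7 CPM against 1.71 to 2.54 CPM in the others. In 48 h tumor 1 BAG3 was at 36.4 CPM against 43.01 to 44.1 CPM in the others. In 24 h tumor 1 CDC37 was at 246 CPM against 141 to 155 CPM in the others.

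Levels differed between successive IK-595 times, by the edgeR test of the difference itself, in 33 of 144 tests, all given as log2 values of the later minus the earlier time. Of all genes tested, 6.89% were higher and 9.0% lower from 2 to 4 h, and 11.6 and 15.5% from 4 to 8 h. From 8 to 24 h these shares were 5.3 and 1.58%, and from 24 to 48 h 2.47 and 1.6%. The counts of chaperone genes after 8 h were close to these last shares. From 2 h to 4 h the difference was 1.39 for HSPA8, 0.51 for HSP90AB1, 0.86 for DNAJB4, -0.88 for HSF1, 0.66 for CCT4 and -0.67 for PFDN2. From 4 h to 8 h the difference was -1.34 for HSPA8, -0.64 for HSPA4, -0.54 for HSPH1, -0.38 for HSP90AA1, -0.92 for HSP90AB1, -1.01 for HSPA9, -0.97 for HSPD1, -0.48 for HSPE1, -0.67 for DNAJA1, -0.75 for DNAJB4, 1.05 for HSPB1, 0.58 for HSF1, -0.64 for STIP1, -0.55 for AHSA1, -0.77 for FKBP4, -0.88 for PTGES3, -0.64 for TCP1, -1.02 for CCT2, -0.83 for CCT3, -1.06 for CCT4, -0.96 for CCT5, -0.91 for CCT6A, -0.71 for CCT7 and -0.71 for CCT8. From 8 h to 24 h the difference was 0.60 for HSPA9. From 24 h to 48 h the difference was 0.82 for HSPH1 and 0.63 for FKBP4. Tumors 2 and 4 at 4 h and at 8 h were rich in muscle or fibroblast markers, and without them, 2 h tumor 1 and 24 h tumor 4, 0 genes were called between 4 and 8 h, with 2 tumors left at each time. That 0 held for all 18896 genes tested, not for the chaperone genes alone.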

How the results depend on the processing

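Of the 113 calls of single genes, 71 remained when each tumor was left out in turn. Among alternatives that kept every tumor, genes called higher numbered 1 at 4 h on log2(TPM + 1) and on log2(TPM + 0.1), 2 at 8 h with DESeq2 or with only the compared groups, and 2 at 24 h with DESeq2. Over all genes tested, those higher at 4 h numbered 1230 in the main fit and 752 and 783 on these scales. At 8 h there were 3755 in the main fit, 4162 with DESeq2 and 4049 with only the compared groups. At 24 h there were 2493 and, with DESeq2, 2759. Genes lower at 48 h numbered 2 on log2(TPM + 1), 1 on log2(TPM + 0.1), 9 with only the compared groups and 1 with the muscle covariate. Over all genes tested, those lower at 48 h numbered 814 in the main fit and 545, 493, 1113 and 633 in these settings. From 2 to 4 h 9 were higher with DESeq2, 7 on either TPM scale or with only the compared groups, and 2 with the muscle covariate. Of all genes tested, 1257 were higher in the main fit and 1938 with DESeq2. There were 1574 and 1423 on the TPM scales, 1100 with only the compared groups and 746 with the muscle covariate. From 4 to 8 h 1 was higher on either TPM scale, beside 807 and 776 of all genes tested, against 2114 in the main fit. From 8 to 24 h 2 were higher with DESeq2 and 0 on either TPM scale or with only the compared groups. Of all genes tested, 967 were higher in the main fit and 1119, 762, 779 and 291 in these settings. From 24 to 48 h 7 were higher and 1 lower with DESeq2, and 1, 0 and 0 were higher on log2(TPM + 1), on log2(TPM + 0.1) and with only the compared groups.

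Settings chosen after seeing the data left out 2 h tumor 1 and 4 h tumor 2, which gave 2 genes higher at 2 h, 1 at 4 h and 2 from 2 to 4 h, and 1 lower from 8 to 24 h. Over all genes tested, the corresponding counts in that fit were 2883, 1272, 1251 and 470. Leaving out the 6 tumors richest in muscle or fibroblast markers gave 2 higher at 2 h, 0 higher and 3 lower at 4 h, 2 lower at 48 h, 0 higher from 2 to 4 h, 0 higher and 0 lower from 4 to 8 h, 0 higher from 8 to 24 h, 1 higher from 24 to 48 h and 8 over the 5 times. That setting kept 2 tumors each at 4 and 8 h, and 0 of all 18896 genes tested were called between these times. Of all genes tested, 123 were higher from 2 to 4 h, 188 from 8 to 24 h and 189 from 24 to 48 h. With all tumors these numbered 1257, 967 and 451. The count over all genes was not taken for the F test over the 5 times. CHORDC1 was not called by edgeR from 4 to 8 h, with means of 40.1 and 40.2 CPM. It changed sign and was called lower on log2(TPM + 1) (-0.53, adjusted p = 0.012) and log2(TPM + 0.1) (-0.55, adjusted p = 0.0121), and the cause was not tested. On these scales the median over all genes tested was -0.20 and -0.27 from 4 to 8 h.

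Leaving out each tumor in turn gave 1 to 2 genes higher and 13 to 20 lower at 2 h, 0 to 2 and 4 to 5 at 4 h, 1 to 2 and 21 to 26 at 8 h, 1 and 15 to 25 at 24 h and 0 to 1 and 0 to 5 at 48 h. The ranges were 0 to 9 higher and 2 to 3 lower from 2 to 4 h, 2 to 3 and 14 to 22 from 4 to 8 h, 0 to 5 and 0 to 1 from 8 to 24 h, 1 to 10 and 0 from 24 to 48 h, and 17 to 26 over the 5 times. Counts over all genes tested moved between these fits as well, those higher from 2 to 4 h ranging from 332 to 2265.

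Replicate numbers did not pair the tumors: deviations of same-numbered tumors correlated at a mean of -0.013 (-0.46 to 0.5, 20 of 60 pairs over 0.1). With the replicate number as a block, 16 genes were lower at 2 h, 25 at 8 h and 21 from 4 to 8 h, 2 were higher from 2 to 4 h and 0 from 8 to 24 h, and 19 differed over the 5 times. Of all genes tested in that fit, 2266 were lower at 2 h, 4188 at 8 h and 2552 from 4 to 8 h. Those higher numbered 960 from 2 to 4 h and 883 from 8 to 24 h. The F test was not run with DESeq2, on TPM or with only the compared groups. Depth limits HSPB8, at or below 1.82 CPM.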
